A study of Phlebiopsis gigantea with 8 samples.

Results

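Among the 11892 gene models of the white-rot basidiomycete *Phlebiopsis gigantea*, 104 carried an annotation of histones, DNA replication or the cell cycle. They were found by wording alone. A model was taken when its putative function or its InterPro domain description named a histone or histone fold, MCM, DNA polymerase, DNA primase, a replication factor, ribonucleotide reductase, septin, tubulin, kinesin, the N-terminal cyclin domain, condensin or structural maintenance of chromosomes. The wording rule used no transcript level, but it was set with earlier results of these data known. Of the 104, 102 averaged at least 1 RPKM (reads scaled by gene model length and by library size) over the 8 libraries and were tested, and the other 2, the cyclin-domain model Phlgi1_51998 and the histone-fold model Phlgi1_16309, were listed at 0 in every library. A function name other than hypothetical was given for only 21 of the 104, so most roles below rest on a domain.

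The core histones H2A, H2B, H3 and H4 wrap DNA into nucleosomes, and the linker histone binds the DNA between them. In most eukaryotes the bulk of histone message is made while DNA is being copied, whereas a few histone variants are made throughout the cycle. MCM proteins form the ring helicase that is loaded on replication origins and unwinds DNA, primase and the DNA polymerases synthesise the new strands, and ribonucleotide reductase makes the deoxyribonucleotides they use. Condensin and the other SMC complexes shape chromosomes, cyclins switch on cyclin-dependent kinases, and tubulin, kinesins and septins serve the spindle, transport along hyphae and septum formation. In a filamentous fungus, tubulin and kinesins therefore also work outside nuclear division.

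RNA came from mycelium grown for 5 days in 250 ml of basal salts, with 1 carbon source per medium. The 3 media were ground loblolly pine wood that had received acetone and been dried again but was not extracted (NELP, 3 cultures), the same wood after Soxhlet extraction and drying (ELP, 3 cultures), and glucose (Glc, 2 cultures). Wood per culture is 2.5 g in the sample labels. The methods of the study state a smaller amount of wood, and the sources used here do not give the amount of glucose. Each culture gave 1 library, the fungus was a strain grown from a single basidiospore, and no group carried a deletion or a drug.

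The Glc libraries stood apart from each other. Between Glc 1 and Glc 2, 35.1% of all tested genes differed over 2-fold, against at most 8% between any 2 libraries of a wood medium, and the median over genes of the log2 standard deviation was 0.506 in Glc, 0.194 in NELP and 0.217 in ELP. Both Glc libraries matched their label in the cellobiohydrolase Phlgi1_34136, which releases cellobiose from cellulose, with 56.8 and 28.4 RPKM against 2544 to 4953 RPKM in the wood libraries. Median RPKM was lower in Glc (12.3 and 16.3) than in wood (21.8 to 23.8), and rescaling each library by the median ratio of all genes moved the median log2 change of all genes from 0.54 to -0.03 in NELP against Glc and from 0.60 to -0.03 in ELP against Glc. Counts against Glc below are therefore also given after that rescaling, and for the members the results turn on Glc 1 and Glc 2 are given singly. Both wood comparisons share the Glc libraries, so their values are set side by side and are not 2 independent results.

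Against Glc, 5 of 6 MCM genes and 8 of 14 DNA polymerase genes were higher in each wood medium, whereas of the 17 core histones 1 was, in NELP. After rescaling, 3 MCM genes were higher in NELP and 1 in ELP, with 6 polymerase genes in each, and 0 of either group passed with the spread estimated by medium. On log2(RPKM + 0.5) with limma, at an adjusted p under 0.05, 31 of the 102 members had higher levels in NELP and 0 had lower levels, where 29.5% of all tested genes were higher and 3.67% lower. In ELP 31 were higher and 1 lower, against 37.3% and 5.14% of all tested genes. The share of members that were higher was thus near that of all genes. The median log2 change of the members, 0.46 in NELP and 0.40 in ELP, lay below that of all tested genes. After rescaling, 14 members were higher and 3 lower in NELP (all genes 6.61% and 6.96%), and 13 were higher and 6 lower in ELP (all genes 10.8% and 11.4%). Counts differed between roles, which are taken in turn. A fit of only the media compared gave 18 higher and 0 lower in NELP (all genes 7.79% and 1.12%) and 19 and 0 in ELP (17.4% and 2.25%). When the spread was estimated for each medium separately, 1 member was higher in NELP and 0 in ELP (0.682% and 0.482% of all genes), and 0 were lower in either (0.209% and 0.164%).

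**Figure D1:**
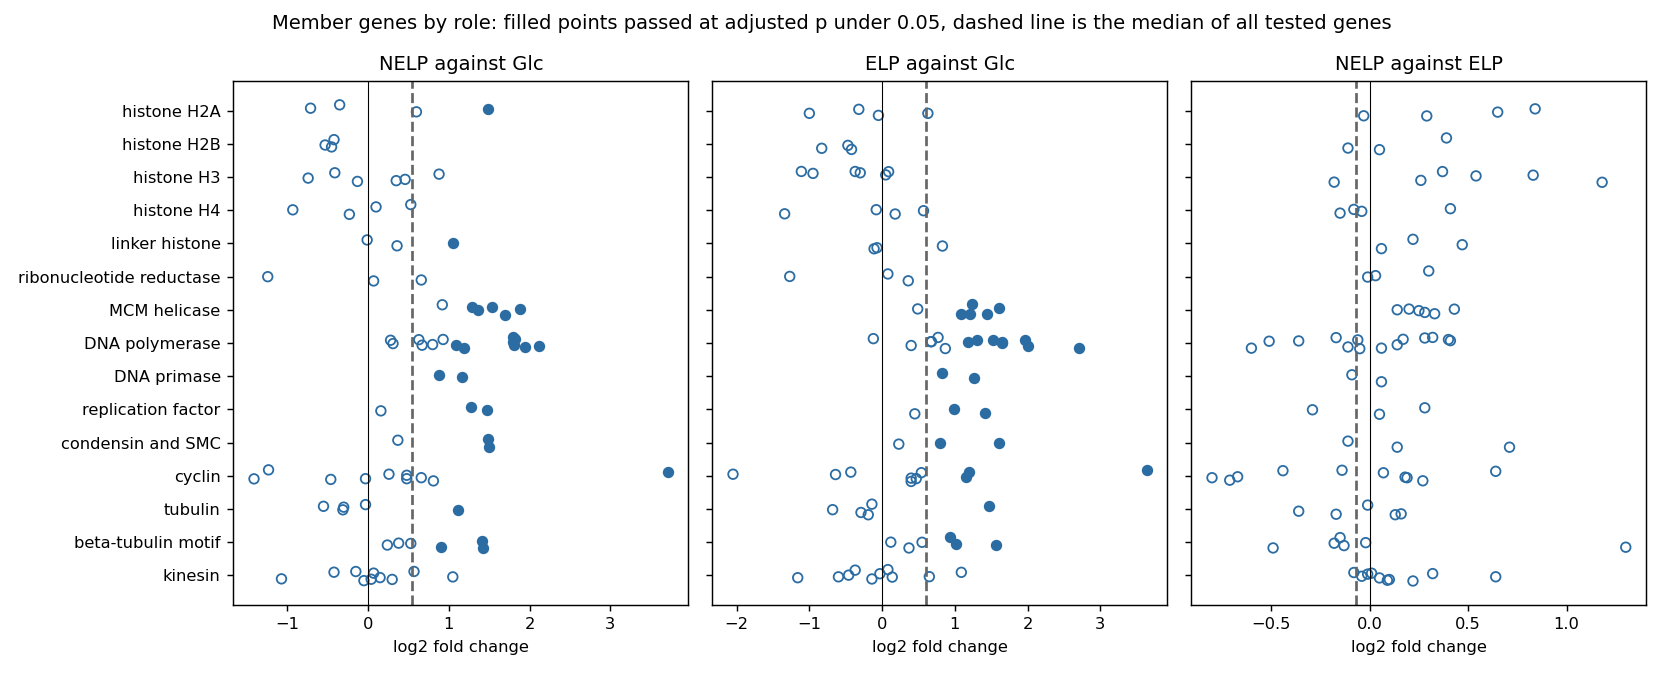
Log2 fold change of each tested member by role, for each wood medium against Glc and for NELP against ELP (x axes, log2 of RPKM + 0.5). Each point is a gene, filled where it passed at an adjusted p under 0.05, and the dashed line is the median of all tested genes. Of the MCM genes 5 of 6 are filled in each wood medium, of the kinesins 0 of 10, and in NELP against ELP no point is filled.

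The MCM helicase genes formed a uniform group. All 6 lay below every one of the 6 wood libraries in Glc 1 and again in Glc 2, where 61.9% and 54.7% of all tested genes did so. Summed over the 6 genes, they gave 126, 177 and 176 RPKM in NELP, 126, 116 and 150 RPKM in ELP, and 58.8 and 58.2 RPKM in Glc. Here the sums of the Glc libraries were alike, in contrast to those of the histones. Single MCM genes did differ, with Glc 1 to Glc 2 ratios from 0.399 to 1.71. In NELP 5 of the 6 passed and in ELP 5 of 6, where 29.5% and 37.3% of all tested genes were higher, with median log2 changes of 1.45 and 1.22 over the 6. After rescaling 3 and 1 of the 6 were higher (6.61% and 10.8% of all tested genes), with medians of 0.87 and 0.58.

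The largest change in this group was that of Phlgi1_106347, annotated as the licensing factor MCM3. It gave 10.4, 13.0 and 14.6 RPKM in NELP, 9.99, 9.61 and 11.2 RPKM in ELP, and 1.89 and 4.73 RPKM in Glc. The wood libraries did not overlap with Glc. Its log2 change was 1.88 ± 0.34 (SE, limma, adjusted p = 0.0086) in NELP and 1.61 ± 0.34 (adjusted p = 0.0092) in ELP. After rescaling the changes were 1.36 (adjusted p = 0.029) and 1.02 (adjusted p = 0.049), so both held.

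Next in NELP came Phlgi1_90875, named after the fission yeast gene cdc19, and Phlgi1_102054, named after cell division control protein 21, which both encode MCM subunits in fission yeast. Phlgi1_90875 gave 38.8 ± 7.11 RPKM (SD, n = 3) in NELP, 32.6 ± 6.38 RPKM (n = 3) in ELP, and 9.84 and 13.5 RPKM in Glc. Phlgi1_102054 gave 39.2 ± 5.40 RPKM in NELP, 31.0 ± 4.87 RPKM in ELP, and 11.9 and 14.3 RPKM in Glc. Both were about as abundant as each other in each medium and were higher in NELP by 1.69 ± 0.27 and 1.54 ± 0.23 on the log2 scale (limma, adjusted p = 0.0069 and 0.0059). In ELP their changes were 1.44 ± 0.27 and 1.21 ± 0.23 (adjusted p = 0.0065 and 0.0068), and after rescaling the ELP changes were no longer past the threshold (adjusted p = 0.059 and 0.11).

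The other 3 MCM genes have no function name. Phlgi1_81292 and Phlgi1_30275 were higher by 1.36 and 1.29 in NELP and by 1.23 and 1.08 in ELP (log2, limma, adjusted p from 0.0066 to 0.017), and neither held at 0.05 after rescaling (adjusted p from 0.05 to 0.31). Phlgi1_12430 did not pass in either medium, with changes of 0.92 ± 0.31 (adjusted p = 0.054) and 0.49 ± 0.31 (adjusted p = 0.23). Its Glc 1 value, 17.6 RPKM, was just under the lowest wood value of 17.8 RPKM, and after rescaling its ELP change was -0.16. A single gene with an Mcm10-type zinc finger, Phlgi1_20777, was higher in NELP (0.77 ± 0.23, adjusted p = 0.038, but 0.24 and adjusted p = 0.48 after rescaling) and not past the threshold in ELP (0.24, adjusted p = 0.42). In yeast and animals Mcm10 acts with the helicase once origins fire.

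**Figure D2:**
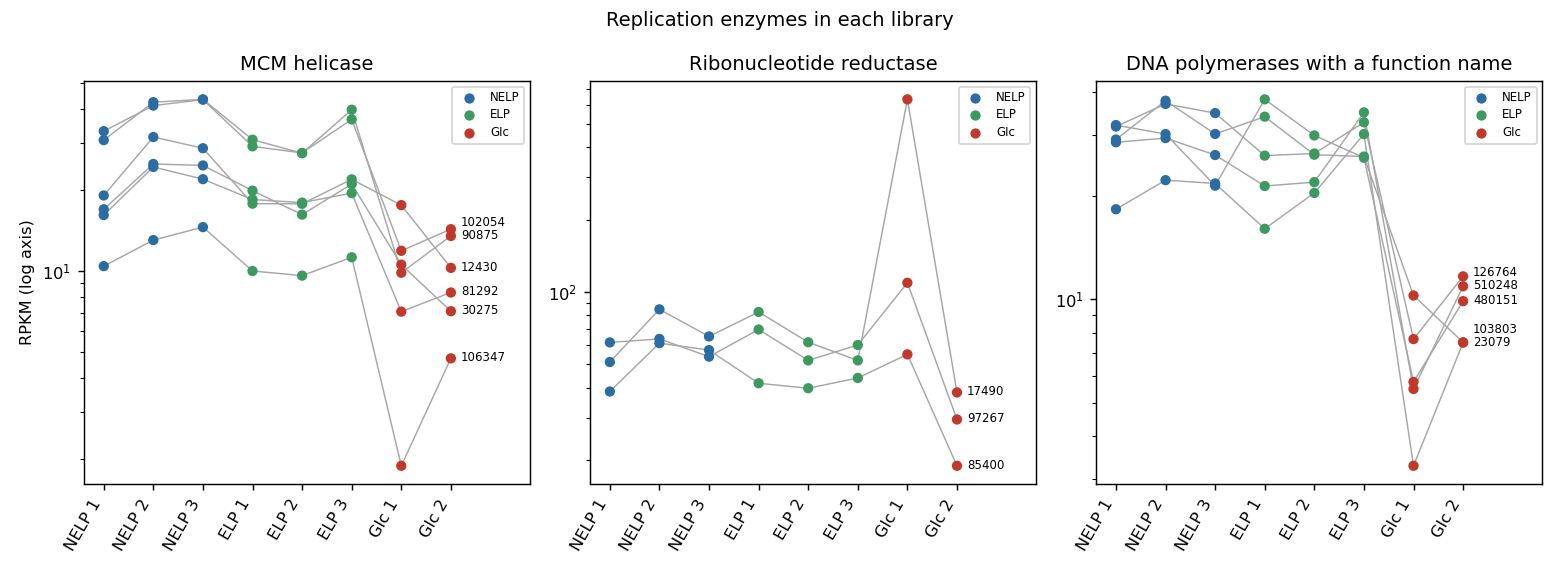
RPKM (log axis) of each MCM helicase gene, each ribonucleotide reductase gene and each DNA polymerase gene with a function name in the 8 libraries, coloured by medium. Points are libraries, and grey lines only join the values of 1 gene. MCM and polymerase genes fall from wood to both Glc libraries, whereas ribonucleotide reductase gene Phlgi1_17490 is at 632 RPKM in Glc 1 and 38.2 RPKM in Glc 2.

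Of the 14 DNA polymerase genes, 8 were higher in each wood medium and 0 were lower (all genes 29.5% and 37.3% higher). After rescaling 6 were still higher in each (all genes 6.61% and 10.8%). In Glc 2 all 14 lay below every wood library, against 54.7% of all tested genes. In Glc 1 9 of the 14 did so, a share near the 61.9% of all tested genes. In all, 3 models are annotated as the catalytic subunit of polymerase delta, the enzyme that copies most of the lagging strand. Phlgi1_103803 gave 29.1, 37.7 and 30.2 RPKM in NELP, 33.9, 26.3 and 26.0 RPKM in ELP, and 10.2 and 7.49 RPKM in Glc. Phlgi1_126764 gave 31.7, 36.9 and 34.7 RPKM in NELP, 26.1, 26.5 and 32.7 RPKM in ELP, and 7.66 and 11.7 RPKM in Glc. Phlgi1_510248 gave 28.6, 29.4 and 26.2 RPKM in NELP, 21.3, 21.9 and 34.9 RPKM in ELP, and 5.49 and 10.9 RPKM in Glc.

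All 3 delta models were thus low in both Glc libraries, with no overlap with wood, and their levels in wood were close to one another. Their log2 changes in NELP were 1.82 ± 0.24, 1.81 ± 0.24 and 1.79 ± 0.33 (limma, adjusted p = 0.0045, 0.0044 and 0.0096). In ELP they were 1.65 ± 0.24, 1.53 ± 0.24 and 1.65 ± 0.33 (adjusted p = 0.0037, 0.0042 and 0.0082). After rescaling all 3 held in both media, with changes from 0.89 to 1.24 (adjusted p from 0.013 to 0.048). The sources used here do not say how reads that fit more than 1 of them were assigned.

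Some of the larger polymerase changes belonged to enzymes that act outside the main replication fork. Phlgi1_29452, a family X polymerase, a family known for filling gaps in DNA repair, gave 51.4, 47.7 and 43.2 RPKM in NELP, 80.3, 73.6 and 62.6 RPKM in ELP, and 5.30 and 20.4 RPKM in Glc. It was lowest in Glc 1, and every wood library was above both Glc libraries. Its log2 changes were 2.12 ± 0.47 (limma, adjusted p = 0.016) in NELP and 2.71 ± 0.47 (adjusted p = 0.0055) in ELP. Phlgi1_480151, annotated as polymerase lambda of the same family, changed by 1.8 ± 0.31 and 1.96 ± 0.31 (adjusted p = 0.0079 and 0.0044). Phlgi1_23079, annotated as polymerase gamma, which copies mitochondrial DNA, changed by 1.94 ± 0.37 and 2.00 ± 0.37 (adjusted p = 0.011 and 0.0066), from 16.0 to 30.2 RPKM in wood and 3.28 and 7.48 RPKM in Glc. All 3 held after rescaling, with adjusted p from 0.014 to 0.049.

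The other polymerase models changed less than those above. Phlgi1_128811, a small subunit of polymerase delta and the most abundant polymerase model, gave 92.3 to 156 RPKM in wood, 96.3 RPKM in Glc 1 and 64.5 RPKM in Glc 2, so that Glc 1 lay among the wood libraries, and it did not pass (0.31 and 0.67, adjusted p = 0.38 and 0.076). Of the 3 models with the subunit B domain of polymerases alpha and epsilon, Phlgi1_22162 was higher in both wood media (1.19 and 1.30, limma, adjusted p = 0.038 and 0.023), while Phlgi1_68483 and Phlgi1_180164 did not pass. Phlgi1_333053, with a family B domain, was higher in NELP alone among the main tests (1.09, adjusted p = 0.027, with 0.77 and adjusted p = 0.065 in ELP), and Phlgi1_372535, with a beta-like N-terminus, passed in ELP (1.18, adjusted p = 0.013) and not in NELP (0.67, adjusted p = 0.096). None of these held after rescaling (adjusted p from 0.22 to 0.87). The polymerase V model Phlgi1_105010, whose budding yeast counterpart acts in ribosomal RNA synthesis, did not pass (0.28 and -0.12, adjusted p = 0.53 and 0.80). It was the only polymerase above every wood library in Glc 1, at 9.71 RPKM against a highest wood value of 9.64 RPKM.

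Both primase subunits were higher on wood. The large subunit Phlgi1_126211 gave 13.4, 19.0 and 15.2 RPKM in NELP, 20.0, 15.2 and 15.5 RPKM in ELP, and 8.38 and 5.37 RPKM in Glc, which made all wood libraries higher than both Glc libraries. Its log2 changes were 1.17 ± 0.27 and 1.26 ± 0.27 (limma, adjusted p = 0.017 and 0.0097). The small subunit Phlgi1_90445 changed by 0.88 and 0.82 (adjusted p = 0.046 and 0.048). Neither held after rescaling (adjusted p from 0.15 to 0.67).

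Of the 3 replication factors, 2 were higher in both wood media (all genes 29.5% and 37.3%). After rescaling 1 was higher in each (all genes 6.61% and 10.8%). Phlgi1_415011 is annotated as replication factor C1, the large subunit of the complex that loads the sliding clamp. It gave 21.4, 30.0 and 26.1 RPKM in NELP, 25.2, 23.6 and 25.2 RPKM in ELP, and 8.13 and 9.80 RPKM in Glc. The Glc values were close together and far under the lowest wood value. Its log2 changes, 1.47 ± 0.22 and 1.42 ± 0.22 (limma, adjusted p = 0.0057 and 0.0040), were 0.89 and 0.78 after rescaling (adjusted p = 0.027 and 0.030). Phlgi1_91536, a Dna2 model, the nuclease and helicase that trims Okazaki fragments, was rare, at 3.46 to 5.70 RPKM in wood and 1.65 and 1.72 RPKM in Glc, and rose by 1.27 and 0.99 (adjusted p = 0.0089 and 0.013), without holding after rescaling (adjusted p = 0.060 and 0.19). The smallest subunit of the single-strand binding protein RPA, Phlgi1_17705, did not pass (0.16 and 0.45, adjusted p = 0.83 and 0.50). It followed the other pattern, with 69.6 RPKM in Glc 1 and 18.6 RPKM in Glc 2.

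Among chromosome structure genes, Phlgi1_101267, annotated as SMC5, which works in DNA repair, gave 95.0, 113 and 94.9 RPKM in NELP, 104, 105 and 118 RPKM in ELP, and 42.8 and 29.4 RPKM in Glc. Wood and Glc did not overlap, and the changes were 1.49 ± 0.23 and 1.61 ± 0.23 (limma, adjusted p = 0.0064 and 0.0035), with 0.89 and 0.95 after rescaling (adjusted p = 0.060 and 0.039). The condensin subunit of the Barren family, Phlgi1_29387, was higher by 1.50 ± 0.24 in NELP and 0.79 ± 0.24 in ELP (adjusted p = 0.0071 and 0.034), and both calls were lost after rescaling (0.92 and 0.14, adjusted p = 0.050 and 0.70). It gave 27.4, 43.1 and 31.4 RPKM in NELP against 21.0, 18.5 and 21.0 RPKM in ELP, so that every NELP library was above every ELP library, with an adjusted p of 0.20 for that difference. The Cnd1-type condensin subunit Phlgi1_106688 did not pass (0.37 and 0.23, adjusted p = 0.50 and 0.67).

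The core histone genes were among the more abundant members. Their 17 models gave together 7200, 7235 and 6192 RPKM in NELP, 7405, 5602 and 4498 RPKM in ELP, 16948 RPKM in Glc 1 and 4661 RPKM in Glc 2. Glc 1 was far above every other library, and Glc 2 was near the lowest wood library. As a share of all RPKM these sums were 0.607 to 0.942% in wood, 1.90% in Glc 1 and 0.540% in Glc 2. Only 1 of the 17 passed in NELP, where it was higher, and 0 of 17 in ELP (all genes 29.5% and 37.3% higher). At medians of -0.23 and -0.32 on the log2 scale they lay below the median of all genes in both comparisons. After rescaling 1 passed in NELP and 0 in ELP again, with medians of -0.84 and -0.99.

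**Figure D3:**
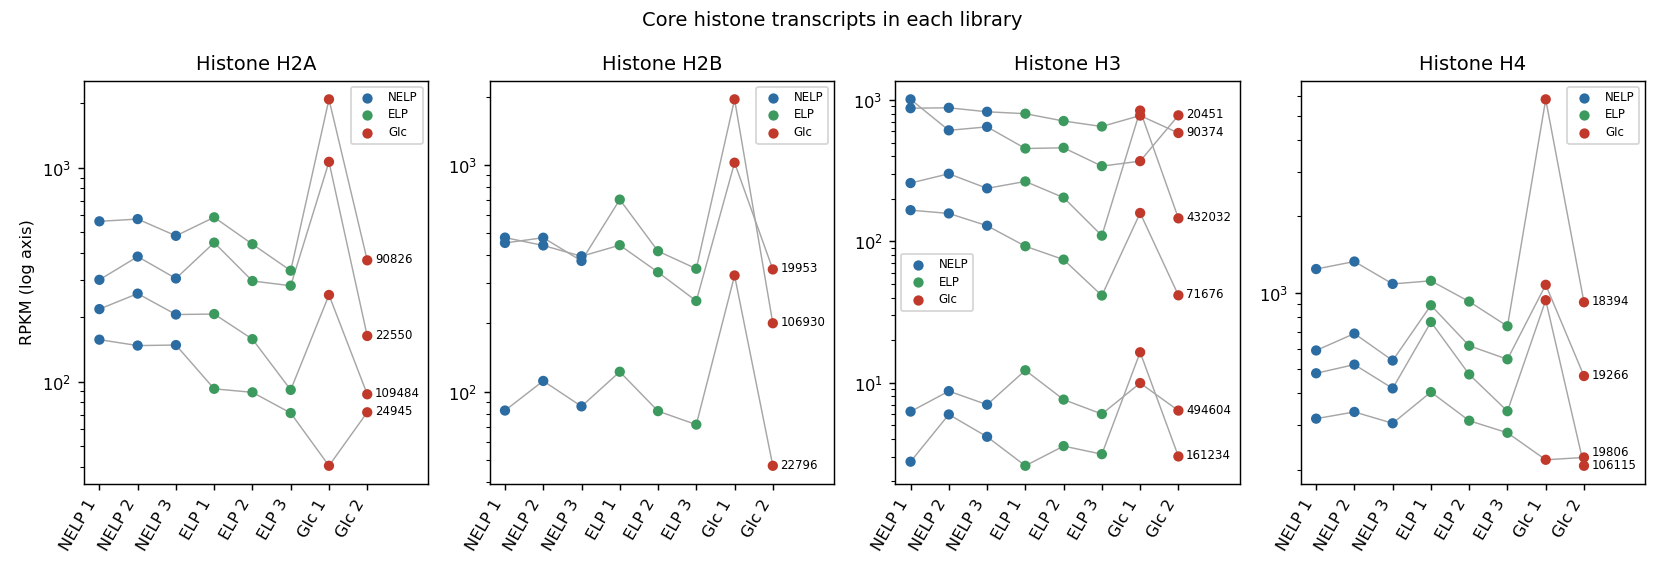
RPKM (log axis) of each core histone gene in the 8 libraries, in a panel each for H2A, H2B, H3 and H4, coloured by medium and labelled by protein number. Points are libraries, and grey lines only join the values of 1 gene. Most genes peak in Glc 1, up to 5800 RPKM for H4 gene Phlgi1_18394. Exceptions are H2A genes Phlgi1_24945 and Phlgi1_109484, H3 genes Phlgi1_20451, Phlgi1_90374, Phlgi1_494604 and Phlgi1_71676, and H4 gene Phlgi1_19806.

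The Glc libraries differed in where they stood against wood. In Glc 1, 10 of the 17 core histone genes were above every wood library and 2 below, where 16% of all tested genes were above and 61.9% below. In Glc 2, 0 of 17 were above and 8 below, where 13.6% of all tested genes were above and 54.7% below, so the share below was not larger than among all genes. Between the Glc libraries themselves, 12 of the 17 were over 2-fold higher in Glc 1 and 1 was over 2-fold lower (all genes 11.1% and 23.9%), and 8 were over 4-fold higher (all genes 3.05%). With 1 library on each side this is a description of these 2 libraries and no test. Against Glc 1 alone, 9 core histones were lower in NELP and 9 in ELP (all genes 11% and 11.2%), and 2 and 1 were higher (all genes 48.7% and 51.2%). Against Glc 2 alone, 4 were higher in NELP and 3 in ELP (all genes 27% and 36.7%), and 0 were lower in either (all genes 6.54% and 9.77%). In these fits the lone Glc library is taken to vary like the wood libraries.

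**Figure D4:**
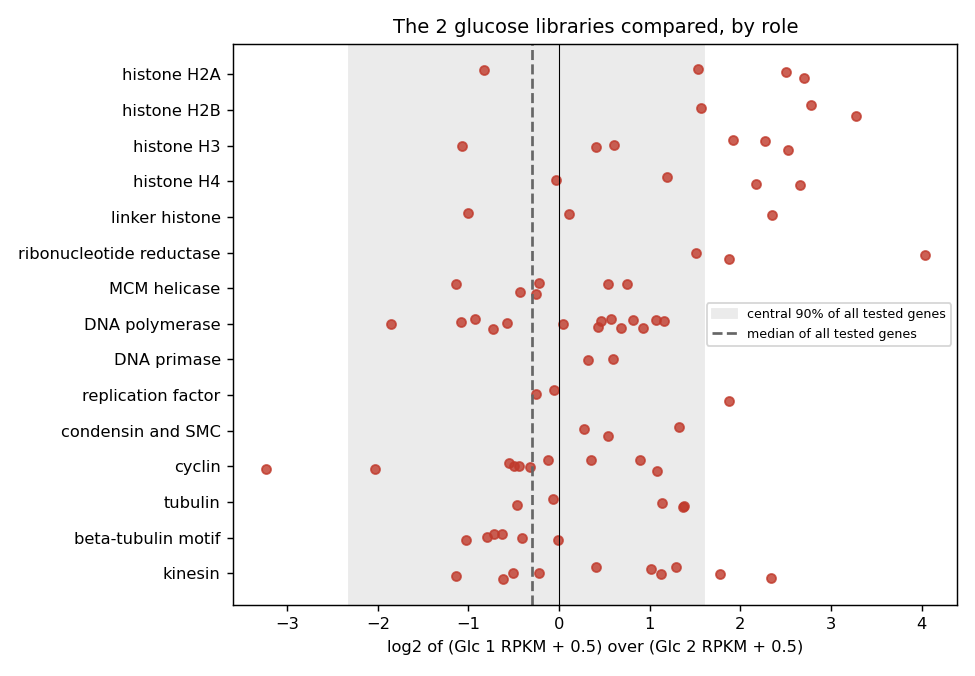
Log2 ratio of Glc 1 to Glc 2 (x axis, RPKM + 0.5) for each tested member by role. Each point is a gene, the grey band holds the central 90% of all tested genes (-2.32 to 1.60) and the dashed line is their median of -0.30. Of the core histones 12 of 17 and of ribonucleotide reductase 3 of 3 are over 2-fold higher in Glc 1, and of the MCM genes 0 of 6.

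The histone with the widest gap was the H2B gene Phlgi1_106930. It gave 453, 478 and 377 RPKM in NELP, 704, 417 and 348 RPKM in ELP, 1950 RPKM in Glc 1 and 200.3 RPKM in Glc 2, a ratio of 9.74. The most abundant histone message was that of the H4 gene Phlgi1_18394, with 1240, 1328 and 1083 RPKM in NELP, 1114, 922 and 737 RPKM in ELP, 5800 RPKM in Glc 1 and 917 RPKM in Glc 2, a ratio of 6.33. In both genes Glc 1 stood above all wood libraries, while Glc 2 lay below them for Phlgi1_106930 and within them for Phlgi1_18394. Neither passed against Glc (limma, adjusted p = 0.63 and 0.70 for Phlgi1_106930, and 0.29 and 0.13 for Phlgi1_18394).

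The H2A genes Phlgi1_22550 and Phlgi1_90826 were 6.52- and 5.66-fold higher in Glc 1 than in Glc 2, at 1065 and 2088 RPKM in Glc 1. The H2B gene Phlgi1_22796 was 6.92-fold higher, and Phlgi1_19953 2.96-fold. Among the H3 genes the ratios were 5.79 for Phlgi1_432032, 5.46 for the rare Phlgi1_161234 (16.4 and 3.01 RPKM) and 3.82 for Phlgi1_71676. For H4 they were 4.51 for Phlgi1_106115 and 2.29 for Phlgi1_19266, and for the H2A gene Phlgi1_109484 the ratio was 2.91. Genes of all 4 core types were therefore in the set that was high in Glc 1.

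The other 5 core histone genes did not share this pattern. The H3 gene Phlgi1_20451 gave 1011, 610 and 646 RPKM in NELP, 454, 459 and 341 RPKM in ELP, 369 RPKM in Glc 1 and 779 RPKM in Glc 2. It was the only core histone over 2-fold lower in Glc 1, and every NELP library was above every ELP library. The H2A gene Phlgi1_24945 gave 157, 147 and 148 RPKM in NELP, 92.5, 89.1 and 71.3 RPKM in ELP, and 40.4 and 71.9 RPKM in Glc, so that NELP was above ELP and Glc without overlap and ELP overlapped with Glc 2. This was the 1 core histone that passed, at 1.48 ± 0.27 in NELP against Glc (limma, adjusted p = 0.0096) and 0.88 after rescaling (adjusted p = 0.043), with 0.63 (adjusted p = 0.096) in ELP.

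The H4 gene Phlgi1_19806 was even in Glc, at 219 and 224 RPKM, and lay between 279.7 and 405 RPKM in wood. It did not pass, with changes of 0.53 and 0.57 (limma, adjusted p = 0.092 and 0.067). The H3 gene Phlgi1_90374, with 584 to 881 RPKM over the 8 libraries, was the steadiest abundant histone, with a Glc ratio of 1.33. The rare H3 gene Phlgi1_494604 never exceeded 12.2 RPKM. No sequence was compared here, so which of these models encode replacement variants was not tested.

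Of the 16 core histone models placed by their RefSeq locus tags (assembly Phlgi1), 8 formed 4 neighbouring pairs of unlike histones. The H2A gene Phlgi1_90826 and the H2B gene Phlgi1_106930 lay 210 bases apart, and the H2B gene Phlgi1_19953 and the H2A gene Phlgi1_109484 256 bases apart. The H3 gene Phlgi1_432032 and the H4 gene Phlgi1_19266 lay 164 bases apart, and the H4 gene Phlgi1_106115 and the H3 gene Phlgi1_71676 572 bases apart. Fungal histone genes are commonly arranged in such H2A with H2B and H3 with H4 pairs. Strand and chromosome are not given in the table used here.

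All 8 paired genes were over 2-fold higher in Glc 1 (all genes 11.1%), with ratios from 2.29 to 9.74. So were the placed genes Phlgi1_22550, Phlgi1_22796, Phlgi1_161234 and Phlgi1_18394, which were in no such pair (6.52, 6.92, 5.46 and 6.33). The pattern was thus not confined to the pairs. None of the 5 genes without it was in a pair, although Phlgi1_20451 could not be placed. Levels within a pair differed nevertheless. In Glc 1 Phlgi1_90826 and Phlgi1_106930 gave 2088 and 1950 RPKM, while in Glc 2 they gave 369 and 200.3 RPKM. Phlgi1_432032 and Phlgi1_19266 gave 842 and 1074 RPKM in Glc 1, and 110 and 546 RPKM in ELP 3. The model of Phlgi1_71676 spans only 177 bases, against 592 to 902 bases for the other placed core histone models, so its RPKM rests on a short target. Histone copies can be near-identical, and reads shared between them may have been divided in ways that cannot be told from RPKM.

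Of the 3 linker histone models, Phlgi1_339238 was high in Glc 1, as most core histones were. It gave 267, 265 and 245 RPKM in NELP, 243, 190 and 140 RPKM in ELP, 456 RPKM in Glc 1 and 88.9 RPKM in Glc 2, above and below all wood libraries respectively. Phlgi1_129288 gave 83.0 to 106 RPKM in all 8 libraries and did not pass, but after rescaling it was lower in ELP (-0.73, limma, adjusted p = 0.038). Phlgi1_126674 was higher in NELP (1.05 ± 0.30, limma, adjusted p = 0.032, but 0.46 and adjusted p = 0.25 after rescaling) and had 0.83 (adjusted p = 0.055) in ELP. The 2 expressed histone-fold models are of unknown type, and Phlgi1_115528 was higher in NELP (0.95 ± 0.21, adjusted p = 0.017), a call lost after rescaling (0.37, adjusted p = 0.23). The other, Phlgi1_119876, had 39.2 to 42.7 RPKM in NELP and 21.6 to 28.3 RPKM in ELP, without overlap, and passed in no main comparison.

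Ribonucleotide reductase showed the largest gap between the Glc libraries of any member. Phlgi1_17490 gave 51.1, 84.6 and 65.3 RPKM in NELP, 82.5, 61.8 and 51.9 RPKM in ELP, 632 RPKM in Glc 1 and 38.2 RPKM in Glc 2, a ratio of 16.6. Glc 1 was 7.47-fold above the highest wood library, and Glc 2 was below the lowest. Phlgi1_97267, with the same domain, gave 109 and 29.5 RPKM in Glc against 51.9 to 69.7 RPKM in wood, and the large-subunit model Phlgi1_85400 gave 55.0 and 18.9 RPKM against 38.5 to 61.2 RPKM. The order was the same in all 3, with Glc 1 above Glc 2 by 2.91-fold or more. None passed against Glc (limma, adjusted p from 0.25 to 0.92).

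Ribonucleotide reductase and most core histones were thus apart from MCM, whose Glc 1 to Glc 2 ratios ran from 0.399 to 1.71. Ribosomal protein messages were also higher in Glc 1, at 6.38% of all RPKM against 3.78% in Glc 2 and 4.78 to 6.01% in wood. In Glc 1, 52 of 128 tested ribosomal protein genes (40.6%) were above every wood library, against 16% of all tested genes. The part of this difference between the Glc libraries in the histone values was not tested. RNA of a whole mycelium cannot tell a larger share of dividing or growing compartments from more message per compartment.

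Of the 5 tubulin models, 3 were over 2-fold higher in Glc 1 and above all wood libraries there (all genes 11.1% and 16%). They were the abundant Phlgi1_20564, at 353 to 409 RPKM in wood, 771 RPKM in Glc 1 and 296 RPKM in Glc 2, Phlgi1_84657 (186 to 248, 367 and 142 RPKM) and Phlgi1_125385 (163 to 239, 436 and 198 RPKM). None of the 3 passed in either wood medium (limma, adjusted p from 0.14 to 0.96), and after rescaling Phlgi1_125385 was lower in ELP (-1.34, adjusted p = 0.044). Phlgi1_101439 differed from them. It gave 81.2, 82.4 and 76.7 RPKM in NELP, 116, 95.4 and 99.2 RPKM in ELP, and 35.9 and 37.7 RPKM in Glc. Even within each medium, it was higher by 1.11 ± 0.19 in NELP and 1.47 ± 0.19 in ELP (adjusted p = 0.0077 and 0.0028), with 0.52 and 0.82 after rescaling (adjusted p = 0.093 and 0.020).

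The remaining tubulin, Phlgi1_29763, did not pass (-0.31 and -0.14, limma, adjusted p = 0.33 and 0.66), but after rescaling it was lower in both wood media (-0.91 and -0.80, adjusted p = 0.024 and 0.026). A model with a tubulin domain but the function name GH16, a glycoside hydrolase family, Phlgi1_442754, was the 1 member that was lower on wood. It gave 10.2, 13.9 and 15.5 RPKM in NELP, 9.23, 8.92 and 10.4 RPKM in ELP, 14.5 RPKM in Glc 1 and 71.2 RPKM in Glc 2. Glc 1 lay within NELP, so the change of -1.71 ± 0.57 in ELP (adjusted p = 0.043) rests largely on Glc 2. Without Glc 2 it was -0.58 (adjusted p = 0.082).

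Tubulin partners help fold or modify tubulin. Cofactor A (Phlgi1_437851) did not pass. Cofactor C (Phlgi1_125915) did not pass either (-0.49 and 0.18, limma, adjusted p = 0.17 and 0.59), but was lower in NELP after rescaling (-1.08, adjusted p = 0.023). The tubulin-tyrosine ligase model Phlgi1_30875 was higher in ELP (0.73 ± 0.25, adjusted p = 0.048) and not after rescaling (0.07). It gave 53.2 to 68.1 RPKM in ELP and 33.9 to 42.8 RPKM in NELP, without overlap.

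A further 6 models were members only through the short motif by which beta-tubulin message is autoregulated, and they carry no function name. Of these, 3 were higher in NELP and 3 in ELP (all genes 29.5% and 37.3%). Phlgi1_73697 changed most evenly, from 34.0 to 44.8 RPKM in wood and 10.5 and 17.7 RPKM in Glc, by 1.41 ± 0.25 and 1.56 ± 0.25 (limma, adjusted p = 0.0088 and 0.0047), and it held after rescaling (adjusted p = 0.040 and 0.023). Phlgi1_24463 was higher in both media (0.91 and 0.93, adjusted p = 0.026 and 0.018), Phlgi1_121216 in ELP (1.02, adjusted p = 0.027) and Phlgi1_13442 in NELP (1.42, adjusted p = 0.031), none of which held after rescaling (adjusted p from 0.12 to 0.31). The most abundant, Phlgi1_20045, gave 26.1 to 49.4 RPKM in wood and 20.9 and 43.3 RPKM in Glc and did not pass.

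Kinesins are motors that walk along microtubules. Of 10 models, 0 passed in either wood medium with limma (all genes 29.5% and 37.3% higher). In each medium 1 of 10 had an unadjusted p under 0.05, a count that was not made over all tested genes. Of the 10, 5 were over 2-fold higher in Glc 1 than in Glc 2 and 1 over 2-fold lower (all genes 11.1% and 23.9%). The widest gap was that of Phlgi1_119047, which gave 12.6 to 19.4 RPKM in wood, 74.8 RPKM in Glc 1 and 14.3 RPKM in Glc 2. Phlgi1_110692 gave 11.1 to 19.6 RPKM in wood, 37.0 RPKM in Glc 1 and 10.5 RPKM in Glc 2. Both were above all wood libraries in Glc 1 alone. The most abundant kinesin, Phlgi1_331597, had the opposite order, with 18.6 RPKM in Glc 1, 41.5 RPKM in Glc 2 and 43.2 to 73.6 RPKM in wood (1.05 and 1.09, limma, adjusted p = 0.070 and 0.054). After rescaling, Phlgi1_13558 and Phlgi1_80188 were lower in ELP (-1.01 and -1.23, adjusted p = 0.022 and 0.047).

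The septin Phlgi1_24698, a filament-forming GTPase of the septum, gave 15.6, 15.8 and 18.9 RPKM in NELP, 10.6, 11.6 and 13.1 RPKM in ELP, and 10.1 and 13.2 RPKM in Glc. NELP was above both other media without overlap, yet the gene did not pass against Glc (0.51 and 0.02, limma, adjusted p = 0.10 and 0.95) or against ELP (0.49, adjusted p = 0.27). The septin and tuftelin-interacting protein Phlgi1_75791 is a member by its name only, since its G-patch domain belongs to splicing factors. It gave 95.4 to 108 RPKM over the 6 wood libraries and 23.6 and 42.5 RPKM in Glc, and was higher by 1.63 ± 0.26 and 1.70 ± 0.26 (adjusted p = 0.0069 and 0.0041), also after rescaling (1.04 in both, adjusted p = 0.023 and 0.017).

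The largest change of any member was in a cyclin-domain gene. Phlgi1_125960, called hypothetical, gave 296, 248 and 272 RPKM in NELP, 355, 248 and 196 RPKM in ELP, and 9.78 and 41.4 RPKM in Glc. The lowest wood library was far above Glc 2, the higher of the Glc libraries. The log2 change was 3.71 ± 0.54 (limma, adjusted p = 0.0056) in NELP and 3.64 ± 0.54 (adjusted p = 0.0038) in ELP, and 3.12 and 2.99 after rescaling (adjusted p = 0.0094 and 0.0078). It was also the member that remained past the threshold in NELP with the spread estimated by medium (adjusted p = 0.047), with 0.052 in ELP. Cyclin-domain proteins include both regulators of division and partners of kinases in metabolism and transcription, and the annotation does not say which this is.

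Of the 10 tested cyclins, 1 was higher in NELP and 3 in ELP (all genes 29.5% and 37.3%). Phlgi1_27364, annotated as a regulator of cyclin-dependent kinase, gave 87.8, 77.2 and 62.6 RPKM in NELP, 151, 121 and 103 RPKM in ELP, and 48.2 and 60.4 RPKM in Glc, with ELP above NELP and NELP above Glc. It passed in ELP (1.19 ± 0.25, limma, adjusted p = 0.010) and not in NELP (0.48, adjusted p = 0.18). Phlgi1_62567 had the same order of wood media (1.15 ± 0.28 in ELP, adjusted p = 0.015). Neither ELP change held after rescaling (adjusted p = 0.12 and 0.17).

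A few cyclins varied within a medium. Phlgi1_29860, the most abundant cyclin after Phlgi1_125960, gave 84.9, 114 and 167 RPKM in NELP, 92.8, 271 and 339.5 RPKM in ELP, and 236 and 321 RPKM in Glc, with no clear separation of media. Phlgi1_41021 was at or below 2.00 RPKM in 7 libraries and at 16.1 RPKM in Glc 2. Neither passed in any comparison. Of the rest, Phlgi1_17808, with 164 to 198 RPKM in wood and 99.97 and 146 RPKM in Glc, missed the threshold in NELP (0.66, limma, adjusted p = 0.051).

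Other members match by wording only. Among them, 9 carry a domain named for an exonuclease and for DNA polymerase III. Of the 9, 2 were higher in NELP and 3 in ELP (all genes 29.5% and 37.3%). They were Phlgi1_11157 (1.02 and 1.00, limma, adjusted p = 0.017 and 0.013), Phlgi1_73376 (1.13 and 1.18, adjusted p = 0.048 and 0.033) and, in ELP, Phlgi1_83651 (1.05, adjusted p = 0.017), and after rescaling none held. The most abundant of the 9, Phlgi1_75411, did not pass. After rescaling Phlgi1_32765 was lower in NELP (-0.91, adjusted p = 0.047). The ferritin-like model Phlgi1_86043 (218 to 433 RPKM) and the subunit of the NuA4 histone acetyltransferase, Phlgi1_108601 (31.7 to 52.1 RPKM), did not pass.

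Between the wood media, the question was whether the acetone-soluble extractives left in NELP went with different levels of these genes. None of the 102 members passed in either direction, where 0.00909% of all tested genes were higher in NELP and 0% lower with limma. At an unadjusted p under 0.05, 10 members were higher in NELP and 7 lower, against 795 and 1003 of the 10999 tested genes. Every NELP library was above every ELP library in 17 members and below in 12, where 16.7% and 22.1% of all tested genes were. Of the 6 MCM genes, 0 were in either count. Their differences, 0.14 to 0.43 on the log2 scale, had standard errors of 0.21 to 0.30.

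That count of 0 changed with the way the spread was estimated, and the main fit shares 1 estimate of spread with Glc. With the spread estimated by medium, 9 members were higher in NELP (7.07% of all genes) and 5 lower (6.29%), and in a fit of the wood libraries alone, 6 were higher (6.12%) and 2 lower (4.28%). The H2A gene Phlgi1_24945 (0.84) was higher in both fits, with adjusted p = 0.015 and 0.022. So was the H3 gene Phlgi1_71676 (1.18, adjusted p = 0.034 and 0.047), which gave 166, 158 and 129 RPKM in NELP and 92.4, 74.3 and 41.4 RPKM in ELP. Histone-fold model Phlgi1_119876 (0.70, adjusted p = 0.022 and 0.033) and kinesin Phlgi1_80188 (0.64, adjusted p = 0.041 and 0.049) were higher in both as well, as were Phlgi1_13442 with the beta-tubulin motif (1.30, adjusted p = 0.032 and 0.044) and the rare exonuclease-domain model Phlgi1_113607 (1.59, adjusted p = 0.0084 and 0.013).

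Lower in NELP in both fits were the tubulin-tyrosine ligase Phlgi1_30875 (-0.69, limma, adjusted p = 0.029 and 0.041) and the exonuclease-domain model Phlgi1_32765 (-0.86, adjusted p = 0.030 and 0.049). With the spread estimated by medium the condensin subunit Phlgi1_29387 (0.71, adjusted p = 0.041), the exonuclease-domain model Phlgi1_75411 (0.71, adjusted p = 0.043) and the H3 gene Phlgi1_20451 (0.83, adjusted p just under the threshold at 0.050) were also higher. The cyclin Phlgi1_27364 (-0.71, adjusted p = 0.042), cofactor C Phlgi1_125915 (-0.68, adjusted p = 0.042) and the exonuclease-domain model Phlgi1_83651 (-0.76, adjusted p = 0.046) were lower. All NELP libraries were sequenced more deeply than all ELP libraries (relative depth 1 to 1.79 against 0.583 to 0.705), and the part of depth in these differences was not tested. For 4 of the 17 core histones every NELP library was above every ELP library, and for 0 was every one below (all genes 16.7% and 22.1%).

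Other genes of these processes, which the wording did not take in, were gathered by wording in a companion list. It holds mainly DNA repair, DNA ligase, topoisomerase, histone deacetylase, nucleosome assembly, kinetochore, spindle and dynein annotations, models of origin recognition subunit ORC2, CDC45, the sliding clamp PCNA, thymidylate enzymes and the anaphase-promoting complex, and models taken in by the letters Cdc or cyclin-related, such as exchange factors of the CDC25 type. Of its 75 tested genes, 47 rose and 1 fell in NELP against Glc, and 46 rose and 3 fell in ELP (all genes 29.5% and 3.67%, and 37.3% and 5.14%). Median changes were 0.81 and 0.88 on the log2 scale, above those of all genes. After rescaling 11 were higher and 1 lower in NELP (all genes 6.61% and 6.96%), and 13 higher and 5 lower in ELP (all genes 10.8% and 11.4%). With the spread estimated by medium, only 0.682% and 0.482% of all tested genes were higher in NELP and ELP. Counts of the list in that fit are not given here. Of the 75, 5 were over 2-fold higher in Glc 1 than in Glc 2 and 14 over 2-fold lower (all genes 11.1% and 23.9%). Of the core histones, 12 of 17 were over 2-fold higher, a difference that was not tested. The 5 were the thymidylate synthase model Phlgi1_36971 (ratio 3.37), the topoisomerase models Phlgi1_37839 (3.07), Phlgi1_71833 (2.52) and Phlgi1_453068 (2.13), and PCNA, Phlgi1_98941 (2.31). These were named after their values were seen.

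The largest changes on the companion list were those of a DNA repair protein with a SNF2 domain, a chromatin-remodelling ATPase, Phlgi1_323542. It gave 42.0, 50.1 and 44.0 RPKM in NELP, 41.1, 36.9 and 39.6 RPKM in ELP, and 4.83 and 6.96 RPKM in Glc, and rose by 2.86 ± 0.22 and 2.65 ± 0.22 (limma, adjusted p = 0.00056 and 0.00079). All libraries of a medium were close to one another. The ankyrin-repeat cell division cycle protein Phlgi1_86099 rose by 2.06 and 2.08 (adjusted p = 0.0012 and 0.0010), the DNA ligase model Phlgi1_32539 by 2.27 and 2.52 (adjusted p = 0.017 and 0.0088) and the kinetochore Spc7 model Phlgi1_24329 by 2.04 and 1.78 (adjusted p = 0.0033 in both). After rescaling these calls held (adjusted p from 0.00072 to 0.029), except that of Phlgi1_32539 in NELP (1.67, adjusted p = 0.053).

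Also on that list, the XPG-type DNA repair model Phlgi1_46173 rose by 2.05 and 1.43 (limma, adjusted p = 0.0069 and 0.013), and the SIR2 family deacetylase Phlgi1_29303 by 1.66 and 2.30 (adjusted p = 0.049 and 0.014). After rescaling Phlgi1_46173 no longer passed in ELP (0.81, adjusted p = 0.11), nor Phlgi1_29303 in NELP (1.07, adjusted p = 0.17). Against these, Phlgi1_139649, with a cyclin-related domain, was lower on wood. It gave 37.3, 36.3 and 56.7 RPKM in NELP, 14.5, 20.9 and 17.0 RPKM in ELP, and 84.8 and 72.5 RPKM in Glc, so that Glc was above NELP and NELP above ELP without overlap (-0.88 and -2.15, adjusted p = 0.042 and 0.0027). The sliding clamp PCNA, Phlgi1_98941, chosen after its values were seen, gave 67.5 to 105 RPKM in wood, 66.0 RPKM in Glc 1 and 28.5 RPKM in Glc 2 and did not pass (0.94 and 1.00, adjusted p = 0.084 and 0.062). Of the 128 tested ribosomal protein genes, 4 were higher and 1 lower in NELP, and 5 higher and 5 lower in ELP (all genes 29.5% and 3.67%, and 37.3% and 5.14%). After rescaling 0 were higher and 5 lower in NELP, and 1 higher and 24 lower in ELP (all genes 6.61% and 6.96%, and 10.8% and 11.4%).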

How the data were processed

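The authors sequenced poly-A RNA of 8 cultures on an Illumina HiSeq2000, mapped reads with SeqNGen and computed RPKM in QSeq. The deposited values are this RPKM, read counts scaled by model length and library size, and 11891 of 11892 models have values. The sources used here do not give read totals or the treatment of reads that fit several models, so depth in reads is unknown. The lowest RPKM values multiplied by length gave relative depths of 1 to 1.79 (NELP), 0.583 to 0.705 (ELP), 0.773 (Glc 1) and 1.38 (Glc 2).

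Log2(RPKM + 0.5) was fitted over the 3 media with limma 3.58.1 (R 4.3.3) for 10999 genes averaging at least 1 RPKM, and p values were adjusted by Benjamini and Hochberg over all of them. The threshold was an adjusted p of 0.05. This moderated test stood in for the statistics of QSeq. Fold changes on this scale understate those of low genes. The p values measure the spread between cultures, pooled over the 3 media in the main fit. That spread was wider in Glc (median log2 standard deviation 0.506) than in NELP (0.194) and ELP (0.217). The pooled spread therefore understates that of Glc, and main-fit p values against Glc are likely too small. A check of the fit on simulated data gave each gene the same spread in all media. It could not cover the wider spread in Glc, and no result rests on it.

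Alternatives were pseudocounts of 1 and 0.1, no filter, a mean of at least 5 RPKM, median-ratio rescaling, only the media compared, an intensity trend, array weights by medium, a replicate block and each library left out. Equal replicate numbers of NELP and ELP were not taken to pair the cultures in the main fit. Named were all histones, MCM, ribonucleotide reductase, tubulin and septin genes, other members that passed, the most abundant member of each role, those differing over 4-fold between Glc libraries with at least 10 RPKM, and up to 5 companion genes per comparison; some others were chosen after their values were seen. The members and lists were chosen with earlier results of these data known. Gene order came from RefSeq locus tags, which matched 103 of the 104 members.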

Additional observations from a re-analysis of the deposited data

How the results depend on the processing

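Precision against Glc is limited by its 2 unlike libraries. In NELP against Glc, members higher numbered 31, and 14 after rescaling, 18 with only the media compared and 1 with array weights by medium; members lower numbered 0, and 3 after rescaling. In ELP against Glc, members higher numbered 31, and 13, 19 and 0 in the same order; members lower numbered 1, and 6, 0 and 0, and 0 without a filter. In NELP against ELP, 0 members passed, and 6 higher and 2 lower did with only the media compared and 9 and 5 with array weights. Pseudocounts, the stricter filter and the intensity trend kept every count within 1.5 times. Leaving out 1 library in turn gave 18 to 41 higher and 0 to 18 lower in NELP against Glc, 22 to 43 and 0 to 19 in ELP against Glc, and 0 to 6 and 0 to 2 in NELP against ELP. The lowest higher counts came without NELP 2 (18) and without ELP 1 or ELP 2 (22), and the highest lower counts without Glc 2 (18 and 19), against 2 and 3 without Glc 1. With a single Glc library left, the spread rests on the wood libraries alone. The NELP against ELP counts without Glc 1 and without Glc 2 therefore repeat those with only the media compared. The cause of the other differences was not tested.

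The sign of the change without Glc 1 differed from that without Glc 2 in 39 of the 102 members in NELP and 38 in ELP, among them 14 and 13 core histones and 3 and 3 ribonucleotide reductase genes. The same count was not made over all tested genes, so these counts are not read as particular to the members. Values of 4 named genes follow as examples, chosen after their values were seen. Members that were not named were not searched for such examples. Only effect sizes are given, since each of these fits holds a single Glc library. Without Glc 1 and without Glc 2, the log2 change was 1.22 and -2.06 for Phlgi1_106930 in ELP, 1.00 and -1.70 for Phlgi1_22550 in NELP, 1.03 and -1.67 for Phlgi1_22550 in ELP, 1.53 and -0.82 for Phlgi1_339238 in NELP, 1.06 and -1.29 for Phlgi1_339238 in ELP, 1.00 and -0.87 for Phlgi1_97267 in NELP, and 1.02 and -0.85 for Phlgi1_97267 in ELP.

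Deviations of same-numbered NELP and ELP libraries had correlations of 0.40, -0.15 and 0.50, and those of unlike-numbered ones ran from -0.53 to 0.28. These values do not settle whether the numbers pair the cultures, and the main fit did not take them to do so. With a replicate block, 28 members were higher and 1 lower in NELP than in Glc, 29 and 2 in ELP, and 0 and 0 between NELP and ELP.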
